A study of Mus musculus with 12 samples.

Results

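A set of 10 genes was followed across 12 libraries of mouse primary microglia. They were 9 genes of the smooth-muscle contractile apparatus, namely *Acta2*, *Tagln*, *Cnn1*, *Myl9*, *Tpm1*, *Tpm2*, *Cald1*, *Actg2* and *Mylk*, together with the tetraspan membrane protein gene *Tm4sf1*, out of the 48623 Ensembl genes quantified. Each gene was matched by its symbol, and the 10 were chosen by measured values, since the TPM of *Acta2*, *Tm4sf1* and related genes had been seen to differ between the genotypes in these same libraries. The genotype difference of the 10 genes is therefore given here as a description with no test. IL-4 tests were run, since the IL-4 contrast did not choose them. The measurement was RNA sequencing, expressed as TPM, a transcript abundance scaled by transcript length and to a fixed total in each library. TPM keeps no read depth, and the number of reads under a value cannot be recovered.

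The libraries fell into 4 groups of 3. Wild-type (WT) C57BL/6J microglia were left untreated or given the cytokine interleukin-4 (IL-4, 20 ng/ml) for 48 hr, and homozygous *Trem2* R47H knock-in (KI) microglia on the same background were likewise untreated or treated. Each of 6 cultures gave 1 untreated and 1 IL-4 library, cultures T13, T33 and T43 being WT and T15, T22 and T32 being KI. *Trem2* encodes a lipid-sensing receptor of microglia. In this mouse line the R47H allele also lowers *Trem2* RNA through altered splicing, and *Trem2* stood at 1190 to 1886 TPM in the 6 WT libraries and at 325 to 770 TPM in the 6 KI libraries. Cells came from neonatal cortex and hippocampus, grown as mixed glia and freed of the astrocyte layer by mild trypsin. The study describes the WT mice of this experiment as littermates of the KI mice, and pups of the KI line were cultured one by one and genotyped afterwards. Which cultures shared a litter is not given in the labels. The p-values below measure the spread between libraries within the groups. The main fit did not tie the untreated and IL-4 library of a culture, so its genotype tests count both as independent. Values with culture as a replicate block are given beside some of them.

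Smooth-muscle cells contract when calcium and calmodulin activate myosin light chain kinase, which phosphorylates the regulatory light chain of myosin and lets it pull on actin filaments. Tropomyosins, caldesmon and calponin sit on those filaments and restrain or stabilise them. Many of these genes are switched on by serum response factor (SRF) and its myocardin-family partners, which bind a short A/T-rich element named the CArG box, and cultured fibroblasts, mural cells and glia can also express them. *Tm4sf1* is best known in endothelial and tumour cells, where its product organises membrane protrusions.

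The CArG box was searched in the 250 bases before the RefSeq start (GRCm38.p6), because it is the element through which several of these genes are known to be controlled. RefSeq windows were matched for 8 of the 10 genes (*Cald1* with 2 start sites, so 9 windows); *Tagln* and *Actg2* had no entry. The strict form, with A or T at each central position, was found in 1 of the 9 windows, that of *Myl9*, and in 1.47% of all 32851 windows. Allowing 1 mismatch in the centre, it was found in 2 of the 9, those of *Myl9* and *Acta2*, and in 8.59% of all windows. The element reads the same way on both strands as a pattern. These are descriptions of sequence and not measured binding sites. Capitals mark the match within 30 bases of the gene's own strand, written 5′ to 3′.
Myl9 strict match, chr2:156775293-156775322, plus strand: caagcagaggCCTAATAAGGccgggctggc
Myl9 match with 1 mismatch, chr2:156775355-156775384, plus strand: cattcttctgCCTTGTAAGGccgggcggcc
Acta2 upstream match with 1 mismatch, chr19:34255438-34255467, minus strand: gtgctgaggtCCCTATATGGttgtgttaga
Acta2 downstream match with 1 mismatch, chr19:34255388-34255417, minus strand: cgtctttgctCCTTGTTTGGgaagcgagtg

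Each of the *Myl9* and *Acta2* windows held a pair of matches. Those of *Myl9* began 161 and 99 bases before the RefSeq start and those of *Acta2* 84 and 34 bases before it. The GENCODE annotation used below begins *Acta2* further upstream, so both *Acta2* matches lie inside the gene span given there. Both *Myl9* matches lie before the GENCODE span of *Myl9*. The *Tm4sf1* window held none, which says only that these letters are not in it. Its sequence is given for contrast, all in lower case.
Tm4sf1 window, chr3:57301989-57302238, minus strand: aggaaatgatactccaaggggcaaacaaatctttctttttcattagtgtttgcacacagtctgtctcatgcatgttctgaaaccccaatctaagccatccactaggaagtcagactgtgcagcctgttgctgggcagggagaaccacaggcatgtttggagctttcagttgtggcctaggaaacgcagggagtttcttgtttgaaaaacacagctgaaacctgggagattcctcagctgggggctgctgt
The letters CATTCC, read by TEAD factors, were searched on both strands and lay in 4 of the 9 windows, namely those of *Acta2*, *Tpm1*, *Mylk* and the upstream start of *Cald1*, against 12.6% of all windows.

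In the annotation of the same genome build (GENCODE, GRCm38), all 10 were protein-coding genes. *Acta2* lies at chr19:34241090-34255590, *Tagln* at chr9:45929619-45936058, *Cnn1* at chr9:22099216-22109630, *Myl9* at chr2:156775420-156781658 and *Tm4sf1* at chr3:57285611-57301988. Overlap with other genes touched *Tagln*, *Cald1* and *Mylk*. *Tagln* shared 62.2% of its 31-base words with other transcripts, nearly all of them with the antisense RNA *Gm48529*, whose own level never exceeded 3.20 TPM. *Cald1* shared 0.25% and *Mylk* 5.52% of their words with other transcripts. Because no strand setting is given for the quantification, it is unknown whether reads in the words shared by *Tagln* and *Gm48529* were told apart. *Acta2* and *Actg2* shared only 1.39% and 1.21% of their words with any other gene.

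*Acta2*, smooth-muscle alpha-actin, was the most abundant of the 10 in every group mean. In untreated WT cultures it stood at 157 TPM in T13, 107 in T33 and 72.6 in T43, and after IL-4 at 153, 128 and 233. In untreated KI cultures it stood at 514 TPM in T15, 679 in T22 and 787 in T32, and after IL-4 at 349, 790 and 485. Every KI library lay above every WT library. The untreated mean was 660 ± 138 TPM in KI against 112 ± 42.3 TPM in WT (SD, n = 3 each), a ratio of 5.88, and by that mean *Acta2* ranked 147th of all genes in KI and 1167th in WT. After IL-4 the ratio of means was 3.16.

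*Tagln*, the actin-bundling protein transgelin, followed the same order. Its untreated level was 155, 52.3 and 60.6 TPM in WT T13, T33 and T43 and 573, 341 and 509 TPM in KI T15, T22 and T32. After IL-4 the WT libraries held 113, 92.2 and 148 TPM and the KI libraries 329, 390 and 195 TPM. No KI library fell into the WT range. The lowest KI value was 195 TPM in T32 after IL-4, and the highest WT value 155 TPM in untreated T13.

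*Myl9*, the regulatory light chain that myosin light chain kinase phosphorylates, also separated the genotypes. WT libraries held 93.0, 27.0 and 34.2 TPM untreated and 51.5, 36.1 and 51.1 TPM after IL-4, in the order T13, T33 and T43. KI libraries held 211, 230 and 184 TPM untreated and 150, 197 and 119 TPM after IL-4, in the order T15, T22 and T32. The untreated WT spread was wide because T13 stood well above the other WT cultures, as it did for *Tagln*. The kinase itself, *Mylk*, did not exceed 0.77 TPM in any library and was below the expression filter, so *Myl9* was measured where the gene of its main smooth-muscle kinase was near 0.

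*Cnn1* (calponin) and *Cald1* (caldesmon), which bind actin and hold back the myosin ATPase, separated the genotypes in the untreated state only. Untreated *Cnn1* was 22.8, 16.3 and 10.0 TPM in WT and 58.8, 74.1 and 119 TPM in KI. After IL-4 it was 14.6, 10.7 and 40.3 TPM in WT and 48.6, 101 and 37.2 TPM in KI, so KI T32 fell below WT T43. *Cald1* behaved likewise.
Untreated *Cald1* was 34.1, 35.0 and 17.6 TPM in WT and 104, 135 and 140 TPM in KI, and after IL-4 it was 32.1, 20.2 and 59.3 TPM in WT against 70.2, 128 and 45.5 TPM in KI. For both genes the overlap came from the same pair of libraries, WT T43 and KI T32 after IL-4.

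The tropomyosins, which lie along the actin filament, split. *Tpm1* was steady in untreated WT cultures, at 87.9, 85.4 and 90.2 TPM, and stood at 209, 308 and 372 TPM in untreated KI cultures. After IL-4 it was 86.8, 113 and 189 TPM in WT and 172, 282 and 257 TPM in KI, where T15 fell just below WT T43. *Tpm2* did not separate the genotypes in either state.
Untreated *Tpm2* was 9.45, 11.6 and 15.8 TPM in WT against 10.3, 102 and 57.0 TPM in KI, and KI T15 stayed within the WT range after IL-4 as well, at 11.5 TPM. The highest *Tpm2* values were 102 TPM in untreated KI T22 and 85.8 TPM in WT T43 after IL-4.

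*Actg2*, the enteric smooth-muscle gamma-actin, was erratic. It was listed at 0 in both libraries of KI T15 and in untreated WT T13, reached 63.5 TPM in untreated KI T22 and reached 58.3 TPM in WT T43 after IL-4. The remaining 7 libraries ran from 0.75 to 11.5 TPM. Its genotype difference on the log2(TPM + 1) scale was -0.20, and leaving out 1 culture at a time moved it between -1.35 and 1.01, so that it had no stable direction.

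*Tm4sf1* separated the genotypes in both states, and its pooled SD within groups, 0.35 on the log2 scale, was the smallest of the 9 genes past the expression filter described below. WT libraries held 29.0, 41.6 and 40.2 TPM untreated and 34.8, 20.2 and 22.8 TPM after IL-4. KI libraries held 199, 166 and 135 TPM untreated and 99.9, 137 and 77.2 TPM after IL-4. The lowest KI library held 77.2 TPM and the highest WT library 41.6 TPM. Group means were 167 ± 31.7 TPM in untreated KI against 37.0 ± 6.90 in untreated WT, and 105 ± 30.4 against 25.9 ± 7.80 TPM after IL-4 (SD, n = 3 each), so that the ratio of means was 4.51 untreated and 4.04 after IL-4.

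**Figure D1:**
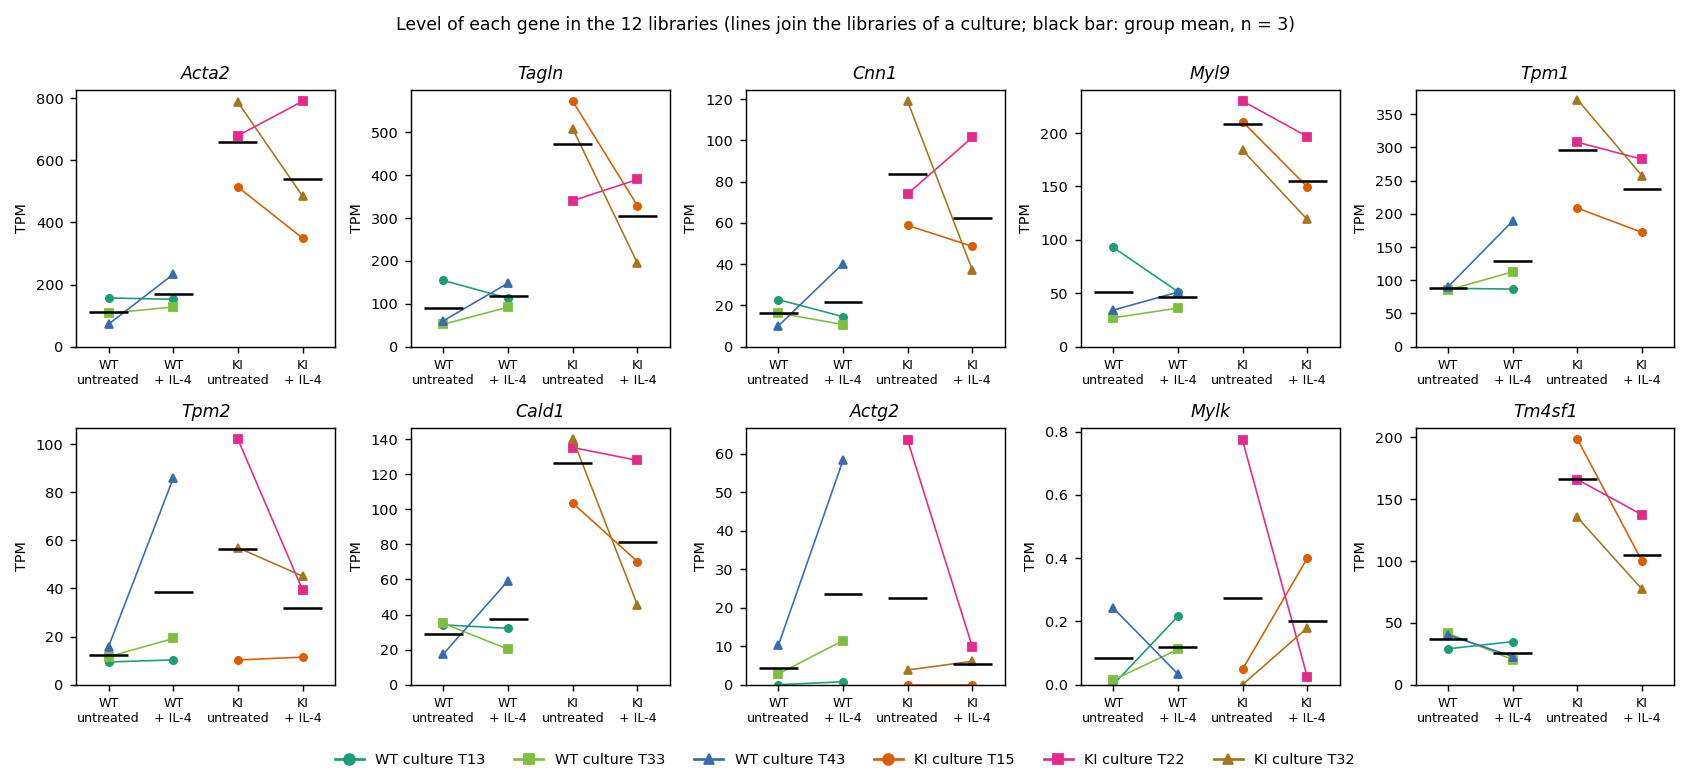
Level in TPM (linear axis from 0, 1 panel a gene) of the 10 genes in the 12 libraries by group; each line joins the untreated and IL-4 library of a culture and black bars are group means (n = 3). KI libraries lie above all WT libraries for *Acta2*, *Tagln*, *Myl9* and *Tm4sf1*, while *Tpm2* and *Actg2* overlap and *Mylk* does not exceed 0.77 TPM.

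Of the 9 genes past the expression filter (a mean log2(TPM + 1) above 1.5, which 11204 genes passed), 7 had all untreated KI libraries above all untreated WT libraries, where 13.6% of all genes tested did. After IL-4 the count was 4, against 12.7% of all genes, and 4 were higher in all 6 KI libraries than in any WT library, against 2.3% of all genes. Nothing is read from these shares, because this contrast chose the genes. The lower counts rested on single cultures: the count after IL-4 and that over both states were each 7 without WT T43, 6 without KI T32 and 5 without KI T15. The median difference between KI and WT was 1.93 over the 9 genes and 0.13 over all genes tested, on the log2 scale. In bulk RNA, fewer cells of a type and less RNA per cell cannot be told apart.

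Within a library, each smooth-muscle isoform was then set against its non-muscle relatives, which is a comparison of levels per length. *Acta2* made up 1.80% ± 1.13 of the summed TPM of *Acta2*, *Actg2*, *Actb* and *Actg1* in untreated WT cultures and 10.0% ± 1.08 in untreated KI cultures (SD, n = 3). The summed level of those actins was 6868 ± 1722 TPM in WT and 6549 ± 689 TPM in KI. The actin total thus overlapped between genotypes while the share of the smooth-muscle form did not, its highest WT value being 3.33% and its lowest KI value 6.59%.

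Against the non-muscle regulatory light chains *Myl12a* and *Myl12b*, *Myl9* held a share of 5.57% ± 3.70 in untreated WT and 18.7% ± 2.12 in untreated KI. Here the untreated family total was separated as well, at 866 to 948 TPM in WT and 996 to 1298 TPM in KI, although KI T15 after IL-4 held 844 TPM. *Tpm1* and *Tpm2* made up 12.0% ± 1.80 of tropomyosin transcripts in untreated WT and 32.2% ± 4.19 in untreated KI, while the tropomyosin totals overlapped. After IL-4 their share was 26.1% in WT T43 and 23.3% in KI T15, so the genotypes overlapped there.

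*Tagln* made up 37.0% ± 20.8 of *Tagln* and *Tagln2* in untreated WT and 73.8% ± 6.67 in untreated KI, and the WT spread came from T13 at 61.0%. That WT value lay just above the lowest KI share, 60.6% in T32 after IL-4. Summed, both genes reached 636 ± 112 TPM in untreated KI cultures against 235 ± 16.2 TPM in WT cultures, so the total differed along with the share.

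Among the calponins the share of the smooth-muscle form overlapped already in the untreated state. *Cnn1* held 9.98 to 14.6% of calponin transcripts in untreated WT libraries and 7.27 to 19.0% in untreated KI libraries, which overlapped, whereas the summed calponin level was 136 ± 52.5 TPM in WT and 610 ± 207 TPM in KI. The non-muscle paralogs *Cnn2* and *Cnn3* were higher there too (below).

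**Figure D2:**
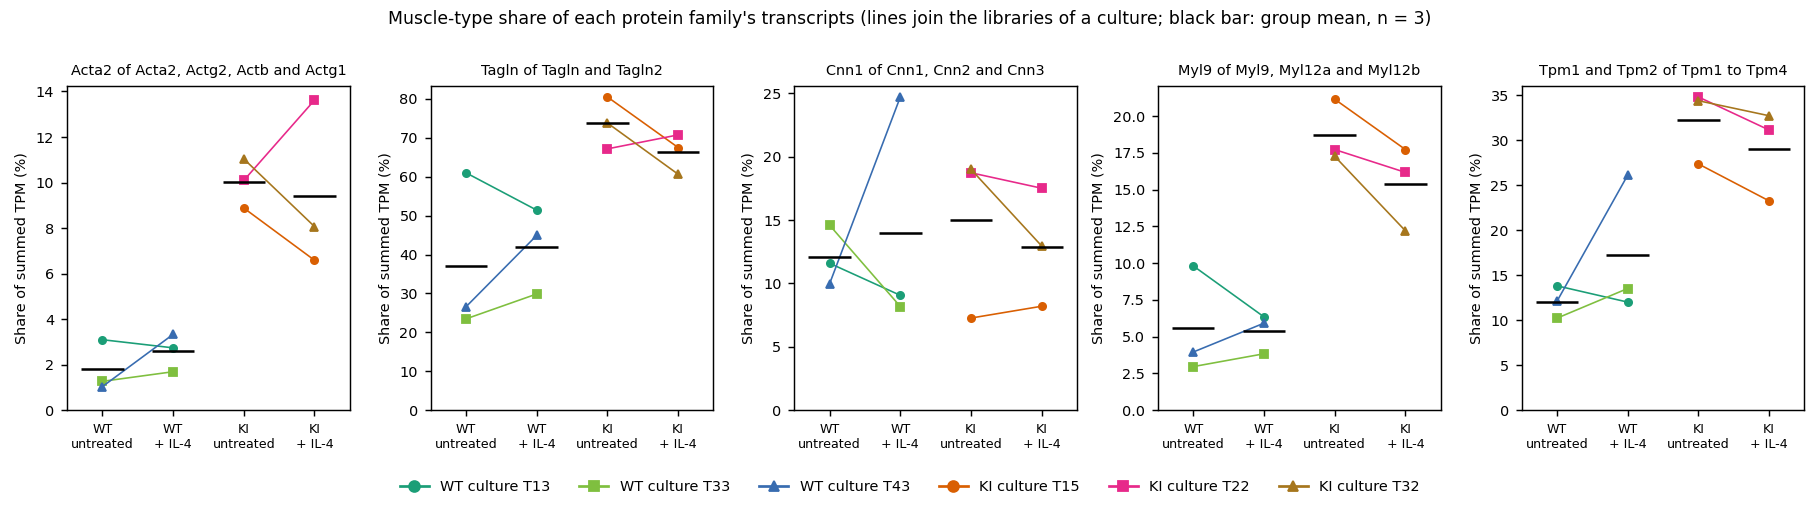
Share (%) of the summed TPM of each protein family taken by the smooth-muscle form, by group; lines join the libraries of a culture and black bars are group means (n = 3). The *Acta2* share is 1.03 to 3.33% in WT libraries and 6.59 to 13.6% in KI libraries, while the *Cnn1* share overlaps between the genotypes.

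IL-4 was the contrast that could be tested. No gene of the 9 passed the limma F-test of IL-4 in either genotype (0 of 9, Benjamini-Hochberg over all genes tested), where 0.893% of all genes did. At an unadjusted p under 0.05 there was 1 of the 9, against 814 of all 11204 genes tested. The 1 gene of the 9 was *Tm4sf1*. It was lower after IL-4 in 5 of 6 cultures, all 3 KI cultures among them, and its mean difference was -0.60 ± 0.19 (SE) on the log2 scale (limma F-test, adjusted p = 0.496). When culture entered as a fixed replicate block, the adjusted p was 0.285, and 0 of 9 genes passed.

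The contractile genes moved unevenly. In KI culture T32, 8 of 9 genes were lower after IL-4 and in T15 7 were lower, with medians over the 9 genes of -0.70 and -0.49 on the log2 scale. In KI T22 the median was -0.13, and *Acta2*, *Tagln* and *Cnn1* were slightly higher after IL-4. Being lower in all 3 KI cultures held for *Myl9*, *Tpm1*, *Cald1* and *Tm4sf1*, 4 of 9, against 12.6% of all genes tested.

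In WT the cultures disagreed. T43 was higher after IL-4 for 8 of 9 genes, with a median of 1.67 on the log2 scale, *Tm4sf1* being the exception at -0.79. T33 had a median of 0.40 and T13 one of -0.04. *Acta2* in T43 went from 72.6 to 233 TPM, whereas it moved from 107 to 128 TPM in T33 and from 157 to 153 TPM in T13. The IL-4 library of T43 also held *Col1a1* at 85.9 TPM, *Col1a2* at 81.7 TPM and *Col3a1* at 63.7 TPM, the highest values of these fibrillar collagens among the 12 libraries. The part of this in the rise of the contractile genes was not tested.

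**Figure D3:**
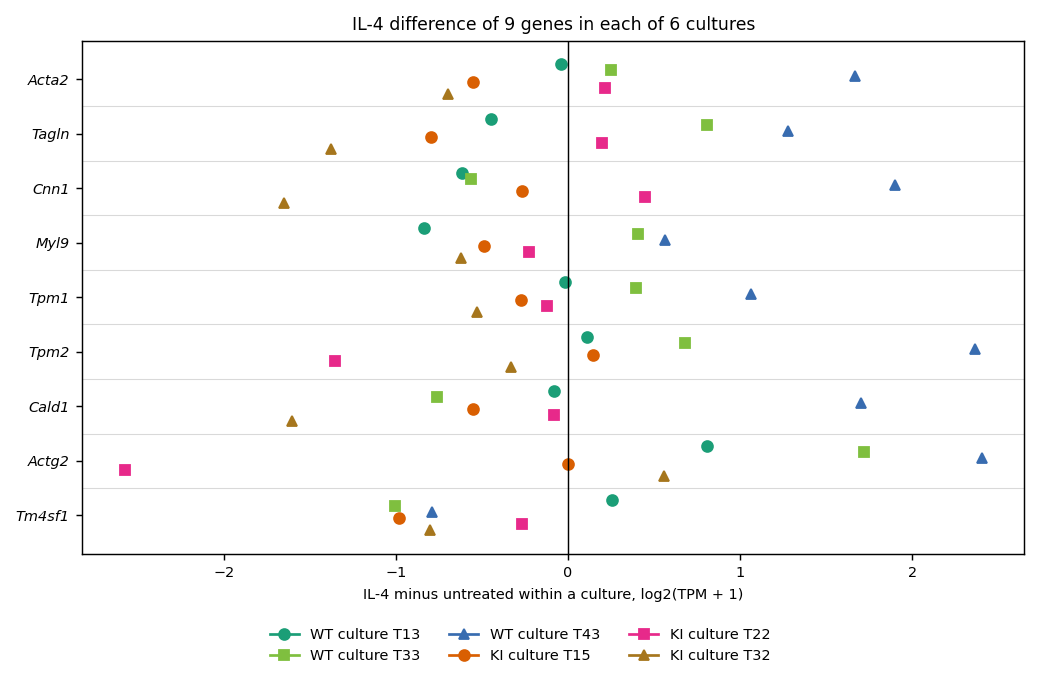
Difference between the IL-4 and the untreated library of each culture on the log2(TPM + 1) scale, for the 9 genes past the filter; colours and symbols are cultures and the vertical line is no difference. WT T43 is the rightmost culture for all genes except *Tm4sf1*, and KI T32 is below 0 for all genes except *Actg2*.

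The estimated IL-4 effect was 0.63 ± 0.33 in WT and -0.35 ± 0.33 in KI for *Acta2*, and 0.55 ± 0.37 in WT and -0.66 ± 0.37 in KI for *Tagln* (log2, SE). For *Tm4sf1* it was -0.52 ± 0.27 in WT and -0.69 ± 0.27 in KI. Over the 9 genes the median effect was 0.48 in WT and -0.51 in KI, where all genes tested had medians of 0.08 and 0.01. The difference of effects, the genotype by IL-4 interaction, passed the limma test for 0 of 9 genes, as for 0% of all genes tested (357 of 11204 at an unadjusted p under 0.05), and 1 gene, *Tagln*, had an unadjusted p under 0.05 (adjusted p = 1.00 in limma). Without culture T43 the median effect in WT was 0.10, that of *Acta2* was 0.10 and that of *Tagln* 0.18, while *Cnn1* turned from 0.24 to -0.59, *Cald1* from 0.28 to -0.42 and *Myl9* from 0.04 to -0.22. The *Tagln* interaction was -1.21 ± 0.52 with all cultures and -0.84 without T43.

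The wider pathway was then examined through 82 other genes in 5 lists. Of the 55 past the filter, 10 were higher in KI and 0 lower by the limma F-test of genotype. Of all genes tested, 1.29% were called higher and 0.357% lower. At an unadjusted p under 0.05 the listed counts were 19 higher and 1 lower, against 1373 and 426 of all 11204 genes. Nothing is read from these shares or from the counts of each list below, because the lists were chosen with earlier results of these data known. The count of 10 was not stable. It was 6 with culture as a random replicate block, 3 without KI T15, 1 without WT T43 and 0 without WT T33, where 2 of all 11204 genes were called higher.

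Among 14 smooth-muscle differentiation genes only 5 passed the filter, all with higher mean levels in KI, and 3 were called higher. *Csrp1*, a LIM-domain protein of actin bundles, had untreated means of 21.0 ± 3.08 TPM in WT and 79.9 ± 25.4 TPM in KI (log2 difference 1.37 ± 0.22 SE, limma adjusted p = 0.0148). *Nexn*, an actin-binding protein of muscle, differed by 2.34 ± 0.39 (adjusted p = 0.0203), with all KI libraries above all WT libraries. *Pdlim7*, a scaffold of actin cables, differed by 1.51 ± 0.27 (adjusted p = 0.0338, and 0.0559 with the replicate block). By contrast *Myh11*, the smooth-muscle myosin heavy chain, was at most 5.9e-05 TPM in any library, and *Lmod1*, *Des*, *Synpo2* and *Synm* were among the 9 genes under the filter.

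Of 20 paralogs, 10 passed the filter and 2 were called higher in KI, both calponins. Without IL-4, *Cnn3* had means of 75.1 ± 45.1 TPM in WT and 415 ± 217 TPM in KI (log2 difference 2.23 ± 0.31, limma adjusted p = 0.00922). *Cnn2* differed by 0.92 ± 0.17 (adjusted p = 0.0321, and 0.0629 with the replicate block). The other 8, which include *Actb*, *Actg1*, *Tagln2*, *Myl6*, *Tpm3* and *Tpm4*, did not pass, with differences between -0.34 for *Actb* and 0.25 for *Myl12a*. The relatives *Tm4sf4* and *Tm4sf19* were listed at 0 in every library.

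None of 16 regulators of myosin light chain phosphorylation passed the test (0 higher and 0 lower, all 16 past the filter, median difference 0.04). They include the GTPase *Rhoa*, the kinases *Rock1* and *Rock2* and the phosphatase subunit *Ppp1r12a*, and at an unadjusted p under 0.05 there were 1 higher and 1 lower. Among 15 transcription factors of the programme, 9 passed the filter and 0 were called by limma (2 higher and 0 lower at an unadjusted p under 0.05), with a median difference of 0.28. Those with an unadjusted p under 0.05 were *Wwtr1*, which encodes the YAP paralog TAZ, with a difference of 1.63 ± 0.34 (limma adjusted p = 0.0568), and *Tead1*, a DNA-binding partner of YAP. *Tead1* and *Yap1* passed the filter only through the KI libraries, where they are higher. Their mean log2 levels were 0.85 and 1.32 in WT and 2.24 and 2.09 in KI. Nothing is read from their values, nor from their part in the counts and median of this list. *Srf* had a difference of 0.55 ± 0.36 and *Mrtfa* one of -0.15 ± 0.31, and *Myocd*, the muscle-restricted partner of SRF, did not exceed 0.02 TPM.

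Of 17 other known targets of SRF or YAP, 15 passed the filter and 5 were called higher in KI. The matricellular genes *Ccn1* and *Ccn2* led. Without IL-4, *Ccn1* had means of 77.1 ± 42.3 TPM in WT and 476 ± 74.8 TPM in KI (log2 difference 2.41 ± 0.30, limma adjusted p = 0.00597). *Ccn2* differed by 2.34 ± 0.32 (adjusted p = 0.00674), and *Fhl1*, a LIM-only protein, by 2.31 ± 0.37 (adjusted p = 0.022). *Thbs1* and *Amotl2* made up the 5, each with an adjusted p of 0.0369 in limma, and both calls were lost with the replicate block (adjusted p = 0.0756 and 0.0709). None of the 55 listed genes tested passed the limma F-test for IL-4. At an unadjusted p under 0.05 there were 4 of them, against 814 of all 11204 genes tested. Without WT T33 the genotype calls above were lost.

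**Figure D4:**
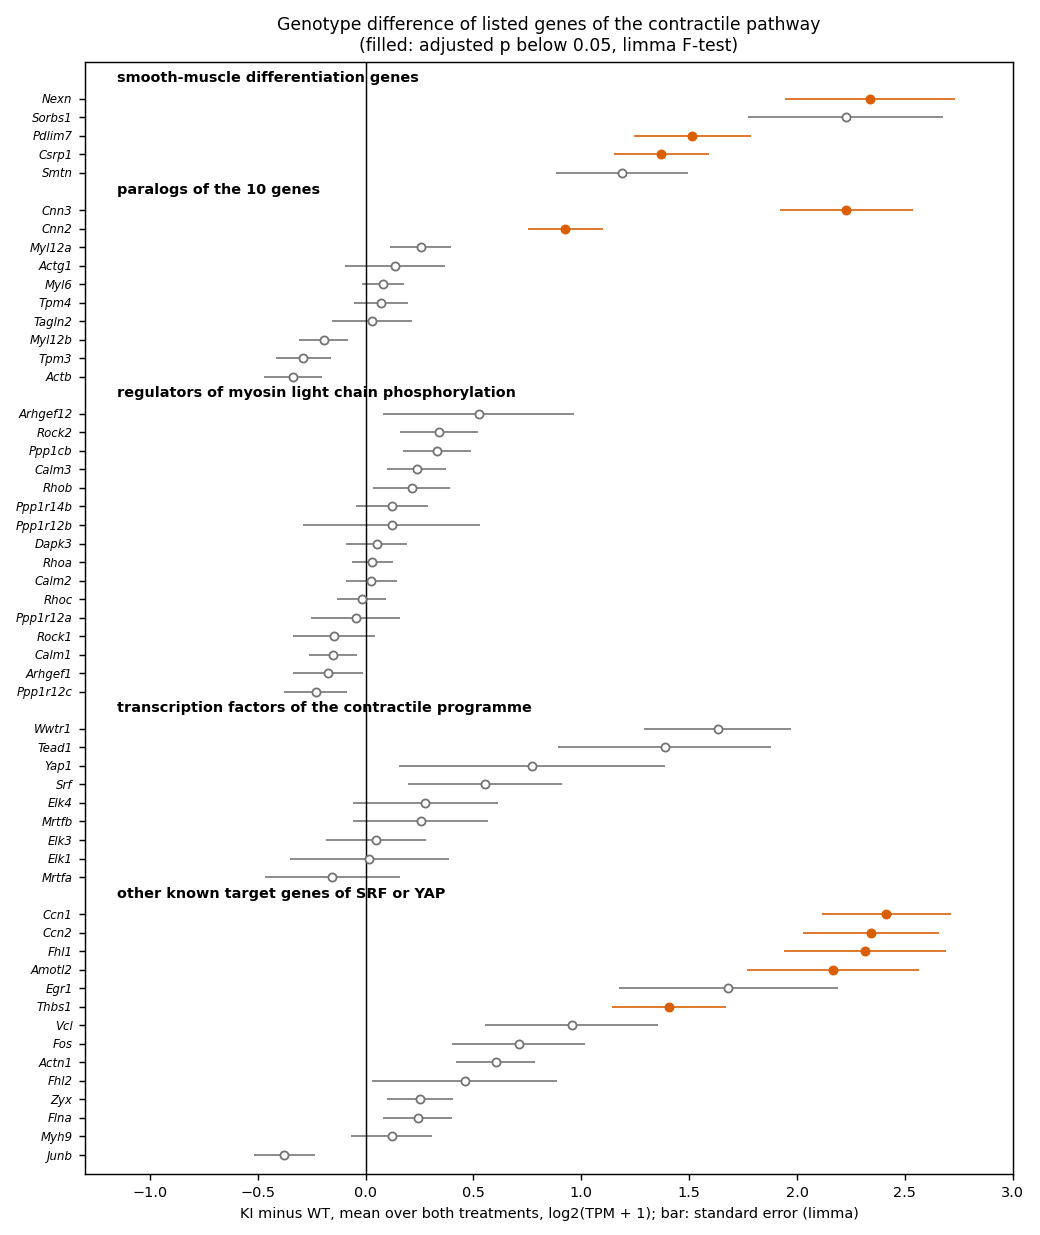
KI minus WT difference (log2 scale, mean over both treatments, bar = standard error from limma) of the listed genes past the filter, in 5 lists, 1 gene not being shown; filled points have an adjusted p below 0.05. The 10 filled points all lie to the right of 0, and the regulators of myosin light chain phosphorylation hold none.

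Co-variation among the genes was uneven. Over the 12 libraries the 36 pairs among the 9 genes had Pearson correlations of log2(TPM + 1) from -0.12 to 0.98, with a median of 0.83. These include the genotype difference that chose the genes. After each group's mean was taken away, the median was 0.41 and the range -0.39 to 0.93. *Cnn1* and *Cald1* were closest at 0.93, then *Tpm2* and *Actg2* and also *Tpm1* and *Tpm2* at 0.91, *Acta2* and *Cnn1* at 0.88, and *Tagln* and *Myl9* at 0.85.

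Within groups *Tm4sf1* had correlations of deviations from -0.38 with *Tpm1* to 0.27 with *Cald1*, being -0.08 with *Acta2* and 0.01 with *Tagln*, although over all 12 libraries it was 0.83 with *Acta2*. Low values were found among the contractile genes too, such as 0.06 for *Tagln* and *Tpm1* and -0.39 for *Tagln* and *Actg2*. The libraries of a culture share cells, and these values carry no test. Over the 12 libraries the 5 genes most like *Tm4sf1* were *Fam92a* (r = 0.95), *Gm10638*, *Sept11*, *Cgrrf1* and *Sod3* (r = 0.92 each), and *Acta2* ranked 112th. This ranking includes the genotype difference, and with group means taken away the values were 0.56 for *Fam92a*, 0.16 for *Gm10638*, 0.22 for *Sept11*, 0.83 for *Cgrrf1* and 0.50 for *Sod3*. The 5 most like *Acta2* were *Ccnd2* (0.97), *S100a11* (0.96), *Cnn1* (0.96), *Thbs1* and *Hbegf* (0.95 each), with values of 0.71 to 0.88 once group means were taken away.

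Marker genes of other cells were measured in the same libraries. Of 17 microglial markers, 16 were at 0.981 TPM or more in every library, the exception being *Siglech*. It was near 0 in libraries of both genotypes, such as 3e-06 TPM in KI T32 after IL-4 and 2.1e-05 TPM in untreated WT T33. Without IL-4 their summed level was 26501 to 28537 TPM in WT and 11486 to 22467 TPM in KI, and after IL-4 it was 30789 to 36342 TPM in WT and 19913 to 26632 TPM in KI, so the microglial sum was lower in KI in each state without overlap. Of the 16 tested, 5 were called lower in KI by the limma F-test, 2 with the replicate block and 0 without WT T33 or without WT T43 (1 without WT T13, KI T15 or KI T32), and *Tyrobp* was the most abundant.

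Of 12 mural cell markers, *Kcnj8*, *Vtn* and *Higd1b* were at 0 in every library and 6 stayed below 1 TPM throughout. Their summed level was 6.66 to 16.3 TPM in WT and 20.4 to 26.2 TPM in KI without IL-4, and 22.3 to 27.4 TPM in WT and 27.8 to 40.6 TPM in KI after it, so the mural sum too was separated in each state, being higher in KI. *Mcam*, the most abundant, was the 1 called higher (limma adjusted p = 0.0407, and 0.0762 with the replicate block), and it was not called with any culture left out. Only 3 of the mural markers passed the filter, and *Cspg4* had a difference of -1.50 on the log2 scale (limma adjusted p = 0.287), so that 1 was higher and 1 lower at an unadjusted p under 0.05. Summed, the 10 genes reached 1231 to 2307 TPM in KI and 352 to 888 TPM in WT.

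Astrocyte markers were highest in KI culture T15. Their summed level was 167 to 693 TPM in WT and 221 to 4803 TPM in KI, with KI T15 at 4803 TPM untreated and 3674 TPM after IL-4, and *Gfap* the most abundant. All 9 markers past the filter had higher means in KI and 0 passed the limma F-test (5 at an unadjusted p under 0.05). The other 4 KI libraries, those of T22 and T32, held 221 to 645 TPM of astrocyte markers and lay within the WT range, whose upper end was set by WT T13 at 693 and 619 TPM. The libraries of WT T33 and T43 held 167 to 205 TPM, less than any KI library. In untreated KI T22, at 221 TPM, *Acta2* stood at 679 TPM, above every WT library. KI T15, the culture with the most astrocyte signal, had the lowest *Acta2*, *Cnn1*, *Tpm1* and *Cald1* of the untreated KI cultures and the highest *Tagln* and *Tm4sf1*. WT T13 had the most astrocyte signal of the untreated WT cultures and also their highest *Acta2*, *Tagln*, *Myl9* and *Cnn1*, but their lowest *Tm4sf1*, *Tpm2* and *Actg2*.

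Fibroblast markers ranged from 11.9 to 250 TPM in WT and from 16.4 to 167 TPM in KI, *Mgp* being the most abundant and *Fbln1* at 0 throughout. The 250 TPM belonged to WT T43 after IL-4. Among 12 endothelial markers *Cldn5*, *Tek* and *Emcn* were at 0 and *Flt1* led, and oligodendrocyte lineage markers, led by *Olig1*, summed to 64.9 to 130 TPM in WT and 144 to 545 TPM in KI without IL-4, which did not overlap, and to 78.2 to 140 TPM in WT and 139 to 372 TPM in KI after it. *Olig1* was higher in KI by 2.69 on the log2 scale (limma adjusted p = 0.0438, and 0.0634 with the replicate block) and was the 1 called of the 6 lineage markers past the filter, with 3 higher at an unadjusted p under 0.05. Its call remained without WT T13 and was lost with any other culture left out. The part of these cell markers in the levels of the 10 genes was not tested.

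**Figure D5:**
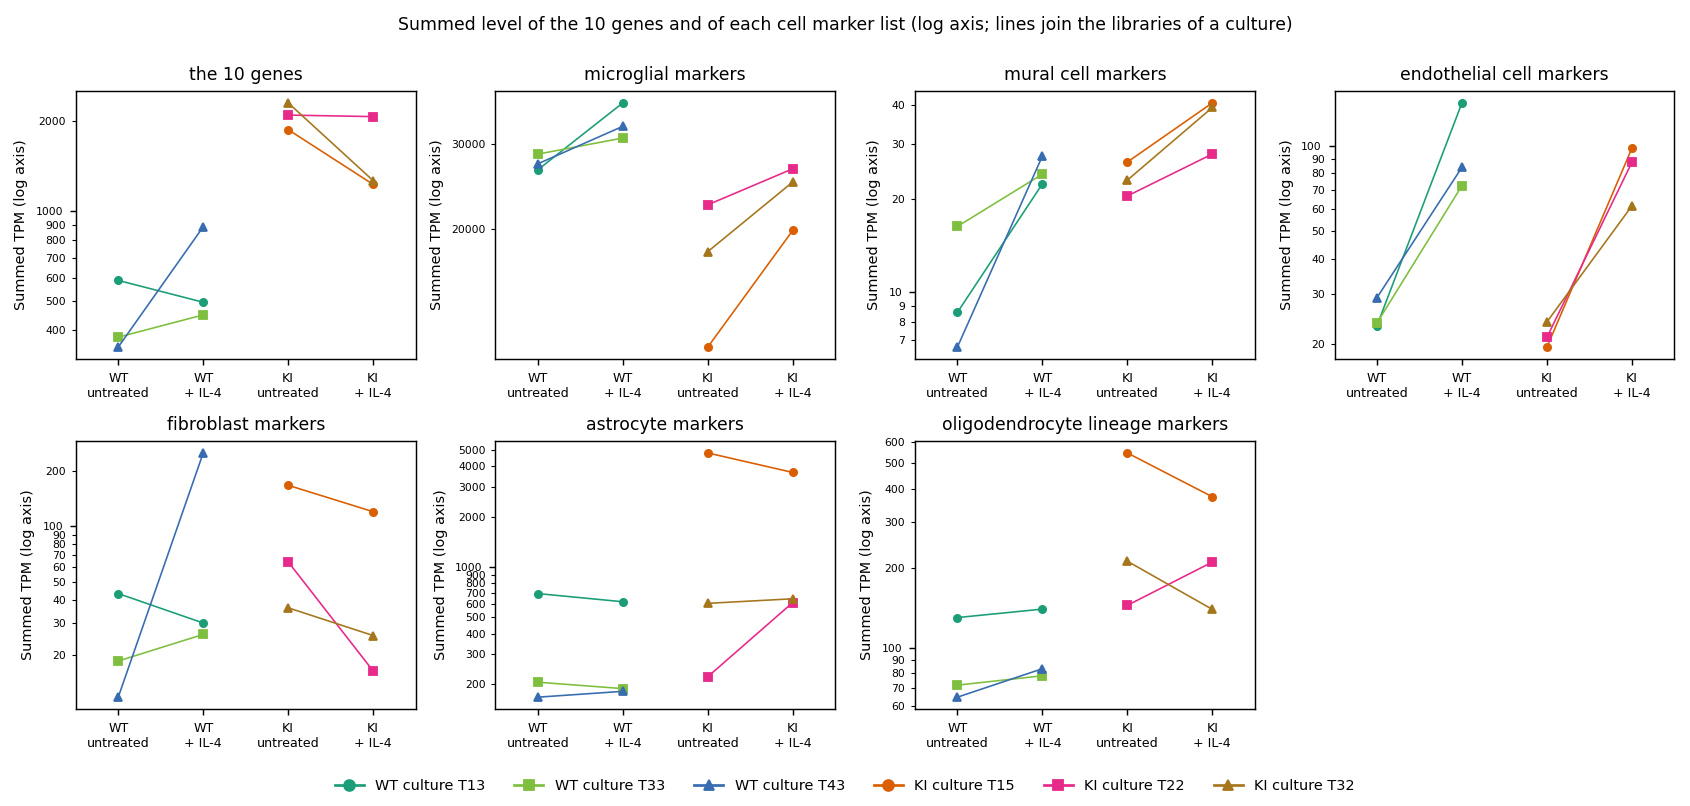
Summed TPM (log axis) of the 10 genes and of 6 lists of cell markers in each library; lines join the libraries of a culture. The 10 genes reach 1231 TPM or more in every KI library, whereas the astrocyte sums of KI T22 and T32 lie above WT T33 and T43 but below the highest WT T13 value, and the highest fibroblast sum belongs to WT T43 after IL-4.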

How the data were processed

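RNA from 12 libraries was poly(A)-primed, amplified (SMART-Seq v4) and sequenced by a service provider, and the authors used Trim Galore for trimming, Salmon for transcript quantification on GRCm38 and tximport for the sums per gene; versions are not given in the sources used here. The deposited values are TPM per gene. Symbols were matched for 48350 of 48623 identifiers. Values were log2-transformed with a pseudocount of 1, genes with a mean above 1.5 were kept, and limma 3.58.1 under R 4.3.3, moderating variances along a mean-variance trend, was fitted to genotype, IL-4 and their interaction, with moderated F-tests and Benjamini-Hochberg adjustment at 0.05. The test was checked on simulated data. The 10 genes and the lists were chosen with earlier results of these data known. Genes named in the text were all 10, up to 3 per list with the smallest p among those past the threshold, the 5 most correlated with *Tm4sf1* and *Acta2*, and in each marker list the most abundant and those at 0; the collagens and genes given as examples were named after their values were seen. The culture number in the sample titles ties the untreated and IL-4 library of a culture. Their deviations from group means correlated at 0.08 to 0.38. Values of 1 listed gene are not reported here. Alternatives were pseudocount 0.1, filters, scalings, no variance trend, replicate block, a test of the mean difference alone and each culture left out.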

Additional observations from a re-analysis of the deposited data

How the results depend on the processing

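For the IL-4 effect and the interaction, 0 of the 9 genes past the filter passed under the main settings and under every alternative run (*Mylk* was not tested, and *Actg2* not with a filter at 3): pseudocount 0.1, no filter, a filter at 3, quantile and median-ratio scaling, no variance trend, culture as a fixed replicate block and each culture left out (0 to 0). The listed genes called higher in KI went from 10 to 0 without a filter, 2 without a variance trend and 6 with culture as a random replicate block. All-gene calls higher in KI also fell, from 145 to 9, 24 and 56 under these 3 settings. The listed count was 7 with quantile scaling, 9 with pseudocount 0.1, 10 with median-ratio scaling and 11 with a filter at 3. It was 13 when the mean genotype difference alone was tested and between 0 and 9 with 1 culture left out. Throughout, 0 were called lower. Genes above WT in every KI library numbered 7 untreated (7 to 8 with a culture left out, 8 without KI T15), 4 after IL-4 (4 to 7) and 4 over both (4 to 7), the latter both highest without WT T43, a check added after seeing the data. IL-4 differences, none past the threshold, changed sign when a culture was left out: the ranges were -0.12 to 0.31 for *Acta2*, -0.27 to 0.19 for *Tagln*, -0.54 to 0.17 for *Cnn1*, -0.33 to 0.019 for *Myl9*, -0.061 to 0.21 for *Tpm1*, -0.060 to 0.50 for *Tpm2* and -0.58 to 0.031 for *Cald1*. Interactions of *Cnn1* (-1.20 to 0.10) and *Tm4sf1* (-0.42 to 0.21) did so too. The cause was not tested. Quantile scaling lowered the median genotype difference of all genes by 0.21 and median-ratio scaling by 0.11; *Acta2*, *Tagln*, *Myl9* and *Tm4sf1* kept their direction. TPM gives no read depth, so the limit for low genes such as *Mylk* and *Actg2* is unknown.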
